A study of Mus musculus with 12 samples.

Results

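The comparison set liver RNA of Cyp1b1 null mice against liver RNA of wild-type mice, both fed a low-fat diet. It compared the means of the 6 arrays labelled with these groups, 3 per genotype, and it was described across all genes measured. The spread behind each SE and p-value was estimated from all 12 arrays in the study, high-fat arrays included. Male mice of either genotype ate a low-fat or high-fat diet in the study, whose stated comparisons include null against wild-type within each diet. The 2 low-fat groups had a diet with 10% fat from weaning at 3 weeks until the livers were taken at 14 weeks. Wild-type mice were C57BL6/J, and the null mice were labelled only Cyp1b1 null, so the sources used here leave the background strain of the null line unstated. Each array carried RNA from 3 pooled samples in Cy3 against 1 Cy5 reference made by pooling livers of wild-type mice on the low-fat diet, and no dyes were swapped. Labelling used 1 of 2 kits depending on the amount of RNA, and the kit of each sample is not given. The labels do not say whether the 3 pools of a group came from separate animals, and the p-values below therefore reflect only how far these particular arrays differed.

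CYP1B1 is a cytochrome P450 that oxidises steroids, retinoids, fatty acids and polycyclic hydrocarbons. In the mouse liver many other P450 genes differ between males and females, because the pulsatile male and the steadier female pattern of growth hormone act on hepatocytes through STAT5B. A second large group of liver genes answers to the fatty acid receptor PPAR alpha, which drives Cyp4a, acyl-CoA thioesterase and peroxisomal genes. Both groups are followed below, together with genes of blood clotting and complement, which hepatocytes secrete, and with genes of detoxification.

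All values below are log2 ratios of the sample over the reference, and differences are null minus wild-type on that scale. A gene was measured when its sample signal cleared background by the scanner software's mark throughout at least 1 of the 4 groups (all 3 arrays), giving 14911 genes. A gene was called when limma's adjusted p, corrected over all of these genes, was under 0.05, and "rose" and "fell" are used only of called genes. Over the 6 arrays, 18368 to 23438 probes stood well above background in the sample channel and 17296 to 25995 in the reference channel, and the number of arrays limits the precision.

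The labels name liver hepatocytes, and 15 of 16 listed hepatocyte markers were measured, all 15 well above background on every low-fat array. Markers of other liver cells were present too. On all 6 arrays 18 of 19 measured markers of Kupffer cells and macrophages, 19 of 20 of endothelium and 22 of 24 of stellate cells and matrix stood well above background. Of 12 neutrophil markers 4 were measured. In bulk RNA fewer cells of a type and less RNA per cell cannot be told apart.

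Wild-type replicate 1 stood apart from the other wild-type low-fat arrays. Over all genes its log ratios correlated at -0.087 with replicate 2 and at 0.081 with replicate 3, while the other wild-type pair correlated at 0.36 and the null pairs at 0.43 to 0.78. These correlations are across genes, which are not independent replicates, and all arrays share the reference. The file headers give 3 scan days, called scans 1 to 3 here. Scan 1 held wild-type replicate 1 and null replicates 2 and 3, scan 2 held wild-type replicate 2 and null replicate 1, and scan 3 held wild-type replicate 3 alone. Within scan 1 the wild-type and the null arrays lay on different slides, so slide and genotype cannot be told apart there. Null replicates 2 and 3 shared 1 slide, and theirs was the correlation of 0.78. The null pairs scanned on different days gave 0.43 and 0.64, and no wild-type low-fat pair shared a scan or a slide. Results are therefore given with the difference inside scan 1 and inside scan 2, and with wild-type replicate 1 left out where that matters.

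Cyp1b1 itself was read by 1 measured probe. A second probe was too dim to be measured, clearing background on 1 null and 0 wild-type low-fat arrays. It read 0.28, -0.013 and 0.0050 on null and -0.075, -0.063 and -0.029 on wild-type arrays. On the measured probe the null arrays read 1.68, 1.58 and 1.59, and the wild-type arrays 0.15, -0.85 and -1.11. Every null array was higher than every wild-type array. The measured probe cleared background on all 3 null arrays but on only 1 wild-type array. The wild-type level is therefore close to background, and the size of the difference under each setting rests on it. The difference was 2.22 (SE 0.34, limma adjusted p = 0.0759), which did not pass the threshold, and it was 1.43 within scan 1 and 2.53 within scan 2. Without wild-type replicate 1 it was 2.60 and was called (adjusted p = 0.0185). It was also called with Agilent's processed signals (4.37, adjusted p = 0.0419), with the sample channel alone and without background subtraction. The direction goes against the label of a null allele. The sources used here do not say which part of the gene is missing, so a probe outside it would check nothing. In what follows "null arrays" means the arrays labelled Cyp1b1 null, and every direction rests on those labels. Nnt, a mitochondrial transhydrogenase gene that carries a deletion in the C57BL/6J strain, read -0.012, 0.12 and 0.30 on null and 0.21, -0.40 and -0.16 on wild-type arrays. The groups overlapped, and the difference was 0.25 (SE 0.17, adjusted p = 0.831).

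Of the 14911 genes, 3 were called, which is 0.0201% of those tested. C8b and Moxd1 rose (0.0134%) and Cyp2a5 fell (0.00671%). Without adjustment, p was under 0.05 for 1077 genes (7.22%), of which 509 were higher in null (3.41%) and 568 lower (3.81%). The 3 null and 3 wild-type arrays did not overlap for 1391 of 14895 genes (9.34%), 714 of them higher (4.79%) and 677 lower (4.55%). Differences above 0 made up 49.1% of genes and those below 0 50.9%, around a median difference of -0.0055. Absolute differences over 1 were found for 309 genes, 121 higher and 188 lower, so the tail of lower genes was the longer one in number. The size of the called set depended on the processing: with the sample channel alone, 34 genes were called, 18 higher and 16 lower, and with Agilent's own processed signals 55, 23 higher and 32 lower.

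**Figure D1:**
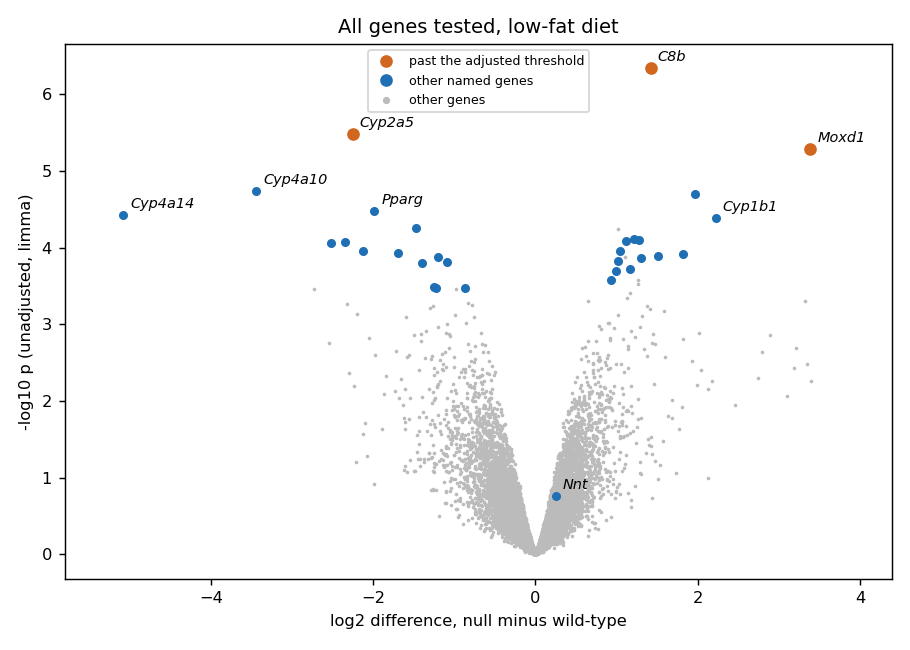
Each point is 1 of the 14911 genes, placed by its log2 difference, null minus wild-type (x axis), and by the unadjusted limma p on a -log10 scale (y axis). The 3 called genes are orange, and other named genes are blue. Cyp4a14 at -5.08 and Moxd1 at 3.39 lie near the ends of the range.

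C8b encodes the beta chain of complement component C8, part of the membrane attack complex. Its null arrays read 1.59, 1.56 and 1.74, and its wild-type arrays 0.19, 0.21 and 0.23. The spread within each genotype was small beside the gap between them, and no array overlapped. C8b rose by 1.42 (SE 0.14, adjusted p = 0.00681), with 1.46 within scan 1 and 1.38 within scan 2.

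Moxd1 encodes a monooxygenase related to dopamine beta-hydroxylase and is more highly expressed in male than in female mouse liver. The null arrays read 4.62, 3.46 and 2.53, and the wild-type arrays -0.055, 0.51 and -0.0054. All null arrays were far above the wild-type arrays, and they also differed widely among themselves. Moxd1 rose by 3.39 (SE 0.42, adjusted p = 0.0257), with 3.05 and 4.11 within scans 1 and 2. It cleared background on 2 of 3 arrays in the wild-type group, so the level there is close to background. With the sample channel alone the difference was 5.17, and a filter that asks for all arrays of both low-fat groups left Moxd1 out. Of the low-fat arrays, leaving out wild-type replicate 1 gave an adjusted p of 0.0502, leaving out wild-type replicate 3 0.120 and leaving out null replicate 2 0.101.

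Cyp2a5 encodes a cytochrome P450 that hydroxylates coumarin and nicotine. Its null arrays read -2.19, -2.55 and -2.61, and its wild-type arrays -0.14, -0.63 and 0.17. The gene fell by 2.25 (SE 0.27, adjusted p = 0.0248), with no overlap, and by 2.44 and 1.57 within scans 1 and 2. Leaving out null replicate 3 gave an adjusted p of 0.124, leaving out null replicate 2 0.101, null replicate 1 0.0503 and wild-type replicate 3 0.0870.

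Cyp2a4, a steroid hydroxylase gene that is higher in female liver, is a near copy of Cyp2a5. Its null arrays read -2.06, -2.17 and -2.40 and its wild-type arrays 1.30, -0.85 and 0.47, again without overlap, for a difference of -2.52 (SE 0.42, adjusted p = 0.0858), short of the threshold. All 3 of its measured probes were lower in null, at -2.52, -2.43 and -1.68. The Cyp2a4 probe at -2.43 overlaps the Cyp2a5 probe and is identical to it at 35 of 38 shared bases, so signals of these genes may be mixed. For the Cyp2a4 probe used, at -2.52, and the one at -1.68 no such overlap was found. The start regions of both genes are shown because they are nearly the same sequence. Over 249 bases upstream of the start, compared without gaps at a shift of 1 base, 245 were identical (98.4%), and the 4 that differ are in capitals. RefSeq's GRCm38.p6 table gives Cyp2a5 at chr7:26835089-26835337 and Cyp2a4 at chr7:26306943-26307191, both on the plus strand.
Cyp2a5: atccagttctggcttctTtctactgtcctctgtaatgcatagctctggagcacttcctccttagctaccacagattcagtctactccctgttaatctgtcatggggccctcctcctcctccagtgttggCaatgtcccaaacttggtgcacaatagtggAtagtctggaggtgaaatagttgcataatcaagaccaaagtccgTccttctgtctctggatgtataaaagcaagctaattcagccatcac
Cyp2a4: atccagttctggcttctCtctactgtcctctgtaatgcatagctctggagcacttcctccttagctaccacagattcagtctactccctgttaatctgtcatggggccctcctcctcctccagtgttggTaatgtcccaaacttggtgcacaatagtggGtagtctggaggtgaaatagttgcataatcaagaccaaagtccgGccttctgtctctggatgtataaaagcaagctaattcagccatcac

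The upstream sequence of Moxd1 is shown because it alone, of the 31 genes chosen by call or test statistic, holds the letters TTCNNNGAA, the core that STAT proteins bind. A promoter entry was found for 24 of these 31. The motif was searched on both strands in the 250 bases before each start. It was present in 7.02% of all 32851 promoters of that length, against 2.94% (1 of 34) of the promoters of those 24 genes, and a match describes the letters alone. Among 16 male-biased genes with an entry, Moxd1 was again the only match, and none of 14 female-biased genes had one. The capitals mark the match, which ends 141 bases before the start. The sequence lies at chr10:24223267-24223516 on the plus strand of GRCm38.p6, per RefSeq.
Moxd1: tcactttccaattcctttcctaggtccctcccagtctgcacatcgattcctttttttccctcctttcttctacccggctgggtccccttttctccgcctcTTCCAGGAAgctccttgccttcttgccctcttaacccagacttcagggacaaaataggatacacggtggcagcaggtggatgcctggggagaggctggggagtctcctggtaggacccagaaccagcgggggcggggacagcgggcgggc

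C8b and Moxd1 both belong to the list of genes known to be higher in male liver. All lists here were chosen with earlier results of these data known, so their counts and medians describe and do not test. Of 24 on the male-biased list, 22 were measured, and 20 were higher in null and 2 lower, from -0.86 to 3.39. In the higher direction 9 had an unadjusted p under 0.05 (3.41% over all genes) and 6 did not overlap (4.79% over all genes). Their median difference was 0.84, against -0.0055 over all genes. Selenbp2, a selenium-binding protein gene, read 2.03, 1.67 and 1.78 on null and -0.054, 0.47 and -0.38 on wild-type arrays (difference 1.81, SE 0.32, adjusted p = 0.0885). Egfr, the epidermal growth factor receptor, read 1.40, 1.48 and 1.27 and 0.15, 0.58 and -0.47 (difference 1.30, SE 0.23, adjusted p = 0.0885). In both genes each null array lay above each wild-type array, and neither passed the threshold. With scan as a block Selenbp2 was called (adjusted p = 0.0107), and both were called with Agilent's processed signals (0.00433 for Selenbp2 and 0.0309 for Egfr). Egfr was also called without wild-type replicate 2 (0.0167). Cyp7b1, an oxysterol hydroxylase of bile acid synthesis, read 3.24, 3.13 and 3.39 on null and -2.24, 1.40 and 0.61 on wild-type arrays. Its difference of 3.33 (SE 0.69, adjusted p = 0.182) came to 5.50 within scan 1 and 1.84 within scan 2. Wild-type replicate 1 was by far the lowest array. Cyp7b1 was called without that array (2.24, adjusted p = 0.0185) and also without wild-type replicate 2 (4.06, adjusted p = 0.0406). The male-biased median came to 1.34 inside scan 1, to 0.31 inside scan 2 and to 0.33 without wild-type replicate 1.

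The major urinary proteins, pheromone carriers secreted by male liver, were also higher in null. All 5 measured of 8 listed were higher, with a median of 2.18, and 4 did not overlap (4.79% over all genes). Mup1 read 2.50, 2.87 and 2.73 on null and -2.30, 1.15 and 0.86 on wild-type arrays, a difference of 2.80 (SE 0.71, adjusted p = 0.329). Scan 1 alone gave a list median of 4.35 and scan 2 alone 0.80, and it was 1.19 without wild-type replicate 1. With the sample channel alone the list median was 0.93 and the Mup1 difference 0.75. These genes are near-identical copies whose signals may be mixed, so single members are uncertain.

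Genes known to be higher in female liver went the other way. Of 28 listed, 20 were measured and 18 were lower in null. In the lower direction 14 had an unadjusted p under 0.05 (3.81% over all genes) and 14 did not overlap (4.55% over all genes), and none in the higher. Their median difference was -1.15, and it was -1.78 within scan 1, -0.56 within scan 2 and -0.96 without wild-type replicate 1. With Agilent's processed signals the median was -2.01 and with a normexp offset of 0 it was -2.04. Of the 20, 12 stood well above background on all 6 arrays. In 7 of the other 8 fewer null than wild-type arrays cleared it, and genes that were measured through the group where they are high had to differ, so the counts are a description. Cyp4a14, a fatty acid omega-hydroxylase, had the lowest difference of all genes tested. It read -6.07, -6.28 and -4.19 on null and -0.35, -2.09 and 1.13 on wild-type arrays (difference -5.08, SE 0.77, adjusted p = 0.0759). It was called with scan as a block (adjusted p = 0.0497), with Agilent's processed signals (0.0243) and without wild-type replicate 2 (0.0116). Cyp17a1, a steroid 17-hydroxylase, differed by -1.60 (SE 0.35, adjusted p = 0.218), and the fatty acid transporter gene Cd36 by -2.55 (SE 0.62, adjusted p = 0.301). Cyp4a14 is also counted in the Cyp4 list below and Cd36 in the lipid droplet list, so these lists are not separate sets of genes. Among regulators of the growth hormone axis no member was called. Of 20 measured, 11 were higher and 9 lower, with a median of 0.16. On the probes used none had an unadjusted p under 0.05 (7.22% over all genes), and few of 20 would be counted at that rate. The smallest p belonged to the prolactin receptor gene Prlr (-0.40, SE 0.19), whose other probes gave 0.094 and -0.034. Some members depended on the probe. The growth hormone receptor gene Ghr gave 0.49 on the probe used and 1.23, 0.74, 0.71 and -0.17 on others. For Onecut1 these were -0.053 and 0.95. By limma the unadjusted p was 0.0095 and 0.022 for Ghr at 0.74 and 0.71, and 0.0040 for Onecut1 at 0.95.

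**Figure D2:**
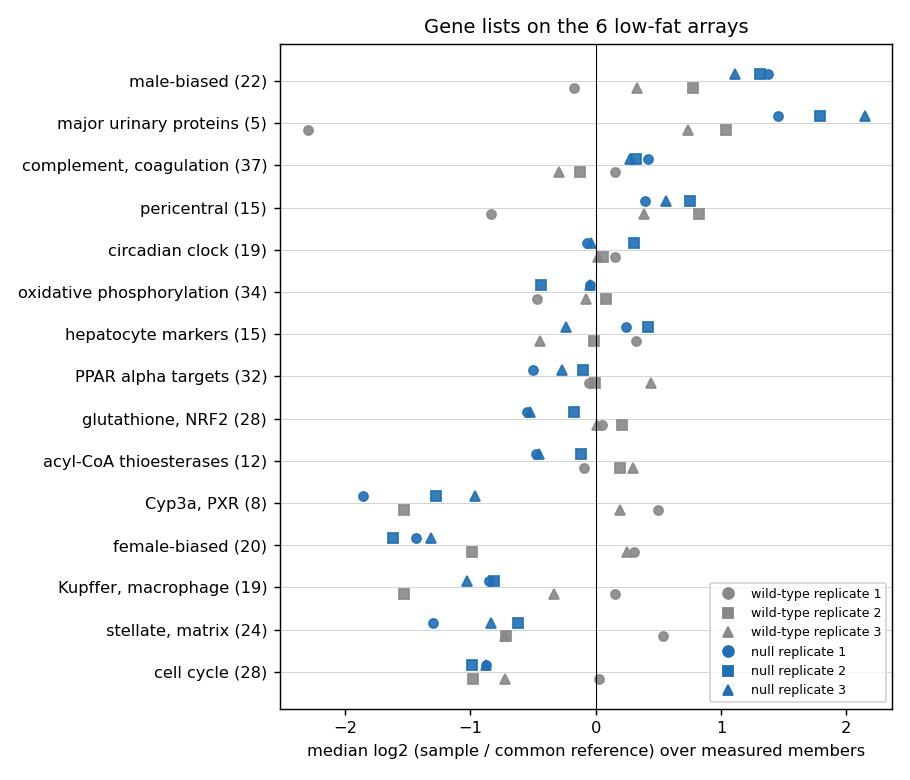
Median log2 ratio over the measured members of 15 gene lists (x axis) on each of the 6 low-fat arrays, with the number of members in brackets. Null arrays are blue and wild-type arrays grey, and the symbol gives the replicate. Wild-type replicate 1 lies at -2.30 for the major urinary proteins and at 0.53 for stellate and matrix genes, away from the other 2 wild-type arrays.

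Outside these lists, Lifr, the receptor of leukaemia inhibitory factor, had the smallest p among the genes higher in null that were not called. Its null arrays read 2.18, 2.70 and 2.37 and its wild-type arrays -0.13, 0.98 and 0.50 (difference 1.97, SE 0.28, adjusted p = 0.0602), without overlap. Its 5 measured probes did not agree: the brightest, used here, gave 1.97, and the others 0.20, 0.30, 0.41 and 1.19. Egfr had 5 probes between 1.14 and 2.39, all higher. Nudt7, a peroxisomal hydrolase of coenzyme A, differed by 1.28 (SE 0.21, adjusted p = 0.0858), and its second probe by 1.09.

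**Figure D3:**
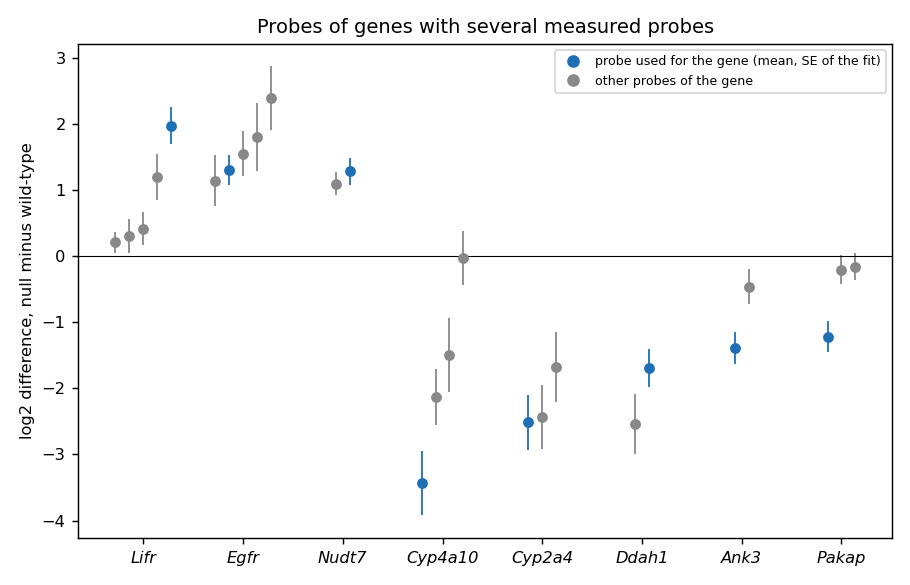
Log2 difference, null minus wild-type (y axis), for every measured probe of 8 named genes, with the SE of the fit as bars. The probe used for the gene is blue and the others grey. The probes of Lifr run from 0.20 to 1.97 and those of Cyp4a10 from -3.44 to -0.036.

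Among the other genes with the highest test statistics were 2 organic anion transporters, Slc22a28 (1.21, adjusted p = 0.0858) and Slc22a30 (0.99, adjusted p = 0.109). Steroid and vitamin enzymes were also among them. Hsd3b3, a hydroxysteroid dehydrogenase, read 0.73, 1.25 and 1.34 on null and -0.051, 0.098 and -0.085 on wild-type arrays, and Hsd17b2, which inactivates oestradiol and testosterone, 1.57, 1.77 and 1.67 and 0.71, 0.60 and 0.64. Neither overlapped, with differences of 1.12 (SE 0.19) and 1.02 (SE 0.18). Gulo, the last enzyme of vitamin C synthesis, differed by 0.93 (SE 0.18, adjusted p = 0.131), the P450 Cyp2c70, which makes muricholic acids, by 1.505 (SE 0.26, adjusted p = 0.0885) and Selenbp1 by 1.17 (SE 0.21, adjusted p = 0.105).

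Clotting and complement genes were measured in full, 37 of 37 listed. Of these 29 were higher in null and 8 lower, and 1 was called (C8b). In the higher direction 9 had an unadjusted p under 0.05 (3.41% over all genes) and 8 did not overlap (4.79% over all genes), and none in the lower. The median difference was 0.33, and it was 0.034 within scan 1, 0.61 within scan 2 and 0.44 without wild-type replicate 1. F11, coagulation factor XI, read 1.56, 1.11 and 1.36 on null and 0.26, 0.34 and 0.28 on wild-type arrays (difference 1.05, SE 0.18, adjusted p = 0.0885). C8a, the alpha chain that pairs with the C8b product, read 0.91, 0.64 and 1.07 and 0.024, 0.14 and -0.71 (difference 1.05, SE 0.28, adjusted p = 0.356). C1ra, a protease of the first complement complex, differed by 0.62 (SE 0.16) and F7, coagulation factor VII, by 0.77 (SE 0.21). None of these other members passed the threshold.

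The PPAR alpha list, which holds targets and also the receptor gene Ppara itself and Ppargc1a, was mostly lower in null. Of 33 listed, 32 were measured, and 27 were lower and 5 higher. Of these 7 had an unadjusted p under 0.05 (3.81% over all genes) and 6 did not overlap (4.55% over all genes), all lower. Their median stood at -0.38, with -0.39 inside scan 1, -0.57 inside scan 2 and -0.29 without wild-type replicate 1. None was called with all arrays. Vnn1, a pantetheinase, read -3.13, -3.16 and -1.67 on null and -0.72, -0.31 and 1.25 on wild-type arrays (difference -2.73, SE 0.54, adjusted p = 0.141). Pex11a, which acts in peroxisome division, read -1.27, -1.25 and -1.36 and -0.72, 0.31 and 1.04 (SE of the difference 0.36, adjusted p = 0.279), with -0.59 inside scan 1 and -1.57 inside scan 2. Without wild-type replicate 1 Pex11a was called, at -1.96 (adjusted p = 0.0345). In each case the null arrays lay below all wild-type arrays. Aldh3a2, a fatty aldehyde dehydrogenase, differed by -1.56 (SE 0.40) and Fgf21, a fasting hormone, by -1.65 (SE 0.48), the latter with overlap.

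The list of Cyp4 hydroxylases, which also holds the related Cyp2e1 and the P450 reductase gene Por, split by gene. Of its 14 measured members 8 were lower and 6 higher, with a median of -0.19, which was 0.043 without wild-type replicate 1. Of its 12 Cyp4 genes 7 were lower and 5 higher. Cyp4a10, a fatty acid omega-hydroxylase, read -3.19, -3.38 and -2.94 on null and -0.45, -0.37 and 1.62 on wild-type arrays (difference -3.44, SE 0.48, adjusted p = 0.0602). The groups did not overlap, but its 4 probes gave values from -3.44 to -0.036. Cyp4a10 was called with scan as a block (adjusted p = 0.0497), with Agilent's processed signals (0.0243), and without wild-type replicate 1 (0.0355) or 2 (0.0259). Cyp4a31 differed by -1.08 (SE 0.34), while Cyp4v3 was higher, at 1.06 (SE 0.39). Signals of closely related Cyp4a copies may be mixed by these probes.

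Acyl-CoA thioesterases, which release free fatty acids from coenzyme A, were lower for 11 of 12 measured members. At an unadjusted p under 0.05, 6 were lower (3.81% over all genes) and 1 higher (3.41%), and 4 were lower without overlap (4.55%). Of the 12, 3 did not clear background on all 6 arrays, each on fewer null than wild-type arrays; a gene measured only through the group where it is high had to differ, so these counts are a description. Their median was -0.58, and it was -0.48 within scan 1 and -0.58 within scan 2. Acot1 read -1.61, -1.93 and -1.52 on null and 0.23, -0.40 and 1.47 on wild-type arrays (difference -2.12, SE 0.36, adjusted p = 0.0885), without overlap. Acot4 differed by -1.20 (SE 0.27) and Acot11 by 0.57 (SE 0.23), the only member with a higher value. The lipid droplet list was lower for 16 of 21 measured genes, with a median of -0.50. Pparg, the adipogenic receptor, read -1.78, -2.15 and -1.92 on null and 0.045, -0.52 and 0.59 on wild-type arrays (difference -1.99, SE 0.30, adjusted p = 0.0759), again without overlap. Hilpda, a lipid droplet protein, differed by -1.29 (SE 0.27), and Abhd5, an activator of fat breakdown, by 0.71 (SE 0.19) in the other direction.

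The glutathione and NRF2 genes, a list that also holds the NRF2 gene Nfe2l2 itself and Keap1, were lower for 21 of 28 measured. Of these 9 had an unadjusted p under 0.05 (3.81% over all genes) and 7 did not overlap (4.55% over all genes), all lower on the probes used. The member Gstp1 was higher, at 0.38 (SE 0.54), and its second probe gave 1.00 (SE 0.36, limma unadjusted p = 0.0188). The list median of -0.55 compared with -0.38 from scan 1, -0.59 from scan 2 and -0.36 without wild-type replicate 1. Gsta4, a transferase that clears lipid aldehydes, read -1.13, -1.27 and -1.01 on null and -0.11, -0.26 and -0.39 on wild-type arrays (difference -0.88, SE 0.17, adjusted p = 0.141). Gstt2 differed by -0.98 (SE 0.19), Gstt3 by -1.26 (SE 0.27) and Gsta2 by -2.32 (SE 0.48). The null arrays were below the wild-type arrays in each. With median centring the median of all genes moved to 0.33; the glutathione median was then 0.042 and the PPAR alpha median 0.19, which are -0.29 and -0.14 relative to that shift. The Cyp3a list also holds Nr1i2, the gene of the xenobiotic receptor PXR itself (-0.26), and Alas1 (-0.61). Its members Cyp3a16, Cyp3a41a and Cyp3a44 are counted in the female-biased list too. It was lower for 8 of 8 measured genes (median -0.89), and wild-type replicates 1 and 2 moved it in opposite ways. The median was -0.16 within scan 2 and -0.55 without wild-type replicate 1, but -1.56 without wild-type replicate 2. Cyp3a11, the main enzyme of the group, read -2.17, -2.09 and -2.08 on null and -0.27, -2.22 and -0.32 on wild-type arrays, with overlap. Without wild-type replicate 2 it was called, at -1.82 (adjusted p = 0.0406).

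**Figure D4:**
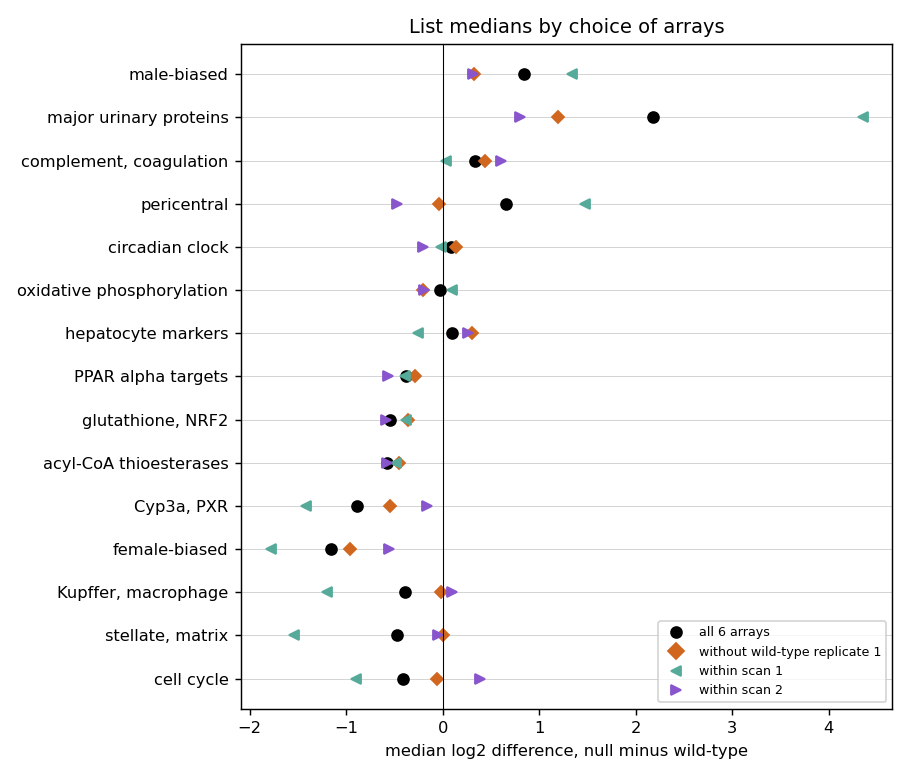
Median log2 difference, null minus wild-type (x axis), of 15 gene lists from all 6 arrays, without wild-type replicate 1, within scan 1 and within scan 2. PPAR alpha targets, glutathione genes and thioesterases stay below 0 in all 4, while pericentral genes move from 0.65 to -0.037 without wild-type replicate 1.

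The medians of several lists shrank when wild-type replicate 1 was left out. Stellate and matrix genes had a median of -0.48 (21 of 24 lower), which was 0.00078 without that array, and their level on the wild-type arrays was 0.53, -0.71 and -0.73. Kupffer and macrophage markers moved from -0.39 to -0.021, cell cycle genes from -0.41 to -0.064, and pericentral genes from 0.65 to -0.037. Leaving out wild-type replicate 2 instead moved the first 3 of these the other way, to -0.71, -0.97 and -0.64. Within scan 2 the cell cycle median was 0.39 and the pericentral median -0.47. Lgals1, a galectin of stellate and other cells, kept its sign in both scans, at -2.26 and -1.51. It read -2.24, -2.73 and -2.17 on null and -0.19, -0.73 and 0.82 on wild-type arrays (difference -2.35, SE 0.39, adjusted p = 0.0858). Hepatocyte markers had a median of 0.093, -0.25 within scan 1 and 0.26 within scan 2. The part of cell type markers in the differences above was not tested.

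Other core liver programmes had medians near 0. Circadian clock genes had none of 19 members at an unadjusted p under 0.05 and none without overlap (median 0.084). The shares over all genes were 7.22% and 9.34%, so few of 19 would be counted at that rate. Oxidative phosphorylation had a median of -0.028, glucose and insulin genes -0.014, urea cycle and amino acid genes 0.060 and lipogenesis 0.028, each within the range that changed sign under at least 1 alternative. A median near 0 does not mean that no member differed. Of 27 glucose and insulin genes 4 were higher at an unadjusted p under 0.05 (3.41% over all genes) and 5 were higher without overlap (4.79%). Pygl, liver glycogen phosphorylase, differed by 0.80 (SE 0.21) and G6pc, the glucose-6-phosphatase gene, by 1.06 (SE 0.39), neither past the threshold. Single genes with low statistics stood out from these. Ddah1, which breaks down asymmetric dimethylarginine, read -2.25, -0.89 and -1.40 on null and 0.24, 0.35 and -0.04 on wild-type arrays (difference -1.69, SE 0.29, adjusted p = 0.0885). Gas6, a ligand of TAM receptors, differed by -1.20 (SE 0.21) and Dop1b by -1.47 (SE 0.23). The membrane anchor gene Ank3 differed by -1.39 (SE 0.25) and Atpif1, an inhibitor of ATP synthase, by -0.87 (SE 0.17). A second Ank3 probe, above background on every low-fat array, gave -0.46 (SE 0.27). On the probes used, the arrays of these genes did not overlap, and none of the genes passed the threshold.

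Other genes given above, and Comtd1 given below, were short of the threshold but passed it under some settings. Without wild-type replicate 2 these were Lifr (adjusted p = 0.0116), Pparg (0.0157), Cyp2a4 (0.00400), Acot1 (0.0122), Lgals1 (0.0325), Cyp2c70 (0.00626), Gsta2 (0.00561), Cd36 (0.0325) and Gas6 (0.0460). With Agilent's processed signals Lifr, Pparg, Cyp2a4, Acot1, Lgals1, Cyp2c70, Selenbp1, Ddah1, Dop1b, Ank3 and Vnn1 were called. With the sample channel alone Pparg, Cyp2a4, Egfr, Cyp4a10, Cyp4a14, Cyp2c70, Ddah1, Dop1b, Ank3, Hsd17b2, Nudt7, Gstt2, Gstt3 and Comtd1 were called.

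**Figure D5:**
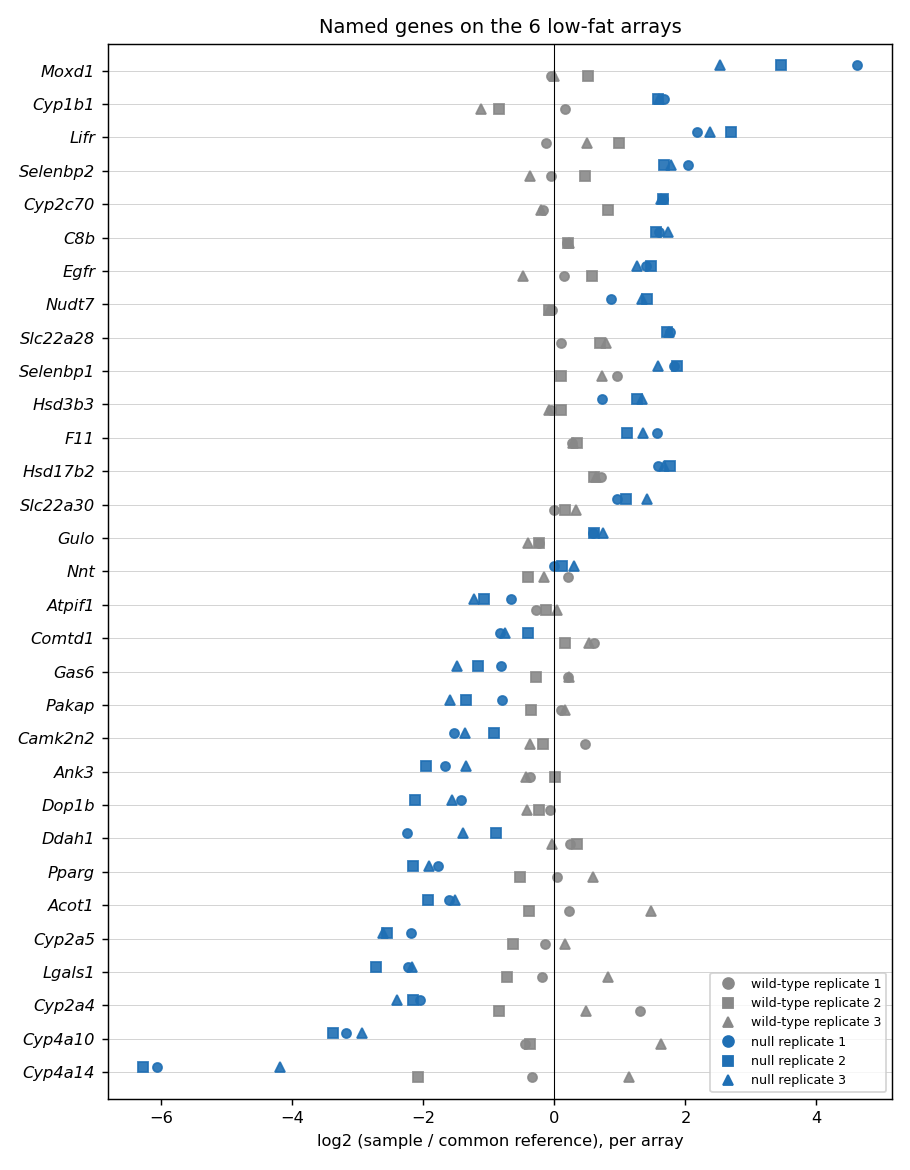
Log2 ratio of sample over reference (x axis) for the 31 genes chosen by call or test statistic on the 6 low-fat arrays, ordered by difference. Null arrays are blue and wild-type arrays grey, and the symbol gives the replicate. Except for Nnt, the null and wild-type arrays do not overlap for any gene shown, which the choice of these genes fixed.

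Whether these differences depended on diet was tested by the interaction, the low-fat difference minus the high-fat difference. By limma none of 14911 genes was called (0%), and 134 had an unadjusted p under 0.05 (0.899%). At high fat, from other arrays but the same reference, 2 genes were called (0.0134%). C8b differed there by 1.42 (adjusted p = 0.00669), Moxd1 by 3.42 (adjusted p = 0.0349) and Cyp2a5 by -1.63 (adjusted p = 0.0883). Comtd1, a methyltransferase-like gene, had the smallest interaction p of those 31 genes. It differed by -1.09 at low fat and by -0.004 at high fat (limma interaction term, unadjusted p = 0.00226, adjusted p = 1.00). The low-fat difference of Comtd1 was short of the threshold (limma adjusted p = 0.0897) and was called with scan as a block (0.0497).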

How the data were processed

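The deposited files hold intensity values of each spot, the mean signal and the median local background in both colours, made with Agilent Feature Extraction 9.1.3.1 per the file headers. Marks for spots well above background or not uniform come with them (unit other, set by the authors' software in the deposited files). The submitters' processing notes name limma without a version, and the authors' ratio table was not used here. R 4.3.3 with limma 3.58.1 was used: normexp (offset 50) handled the background, and log2 ratios were normalised by loess within arrays, with control and non-uniform spots at weight 0. Repeated spots were averaged, and the brightest measured probe stood for a gene. Of 41174 probes 21490 were measured, and 4900 of 14911 genes had several. Symbols came through RefSeq accessions for 24844 probes and otherwise from the file or current and older symbols. Genes have no genome positions here except the promoters printed. One mean per group was fitted to all 12 arrays, and Benjamini-Hochberg adjusted p-values were called under 0.05. The steps were tested on simulated data. Named genes were Cyp1b1, Nnt, every called gene, the 15 highest and 15 lowest moderated t statistics among symbols with non-overlapping arrays, which make 31; members of lists, up to 4 each with the smallest p, were named besides. F7 and Acot11 were chosen after their values were seen. The members and the 40 lists were chosen with earlier results of these data known. Alternatives covered background, normalisation, probe filter, fit, blocks and each array left out.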

Additional observations from a re-analysis of the deposited data

How the results depend on the processing

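Limits: 3 arrays a group, 1 shared reference, no dye swap and 3 scan days that do not split evenly by genotype. The count of called genes, 3 as reported, was 55 with Agilent's processed signals, 5 with a normexp offset of 0, 11 without background subtraction and 34 with the sample channel alone. It was 0 with median centring (174 at an unadjusted p under 0.05), 0 with scale normalisation between arrays (142), 0 with the 2 low-fat groups alone (748) and 0 with a robust fit with a trend (1036). It was 1 without a filter on dim probes (of 27975 genes), 5 with the stricter filter (of 12674), 11 with scan as a block and 1, C8b, with the replicate block. Leaving out 1 array gave 1 to 28 called genes, 10 without wild-type low-fat replicate 1 and 28 without wild-type low-fat replicate 2. With each array left out in turn, C8b was called every time, with adjusted p from 0.00731 to 0.0447. C8b was not called with the sample channel alone (limma adjusted p 0.0655), median centring (0.994) or scale normalisation (0.9999). Nor was it called with the 2 low-fat groups alone (0.383) or the robust fit with a trend (0.151). Moxd1 and Cyp2a5 were each lost in several of these fits too. High-fat arrays enter through the shared spread: without wild-type high-fat replicate 1, 2 or 3 the adjusted p of Moxd1 was 0.0652, 0.0669 and 0.0705, and that of Cyp2a5 was 0.0705 without replicate 3. Without null high-fat replicate 1 or 3 both genes were at 0.0584 and 0.0512. Whether replicate numbers pair the samples was not settled. Deviations of same-numbered low-fat arrays correlated at -0.44, -0.052 and 0.024, but these arrays were scanned on different days. Deviations of other null and wild-type low-fat pairs correlated at -0.46 to 0.43. The cause of these changes was not tested. Median centring moved the median of all genes to 0.33. Relative to that shift 35 of 40 list medians kept their sign, and 34 did without wild-type low-fat replicate 1. With the sample channel alone, 36 did, and with scale normalisation 37, both alternatives chosen after seeing the data. For the 31 genes chosen by call or test statistic, 716 values under the alternatives kept direction and side of the threshold, 56 newly passed it and 32 no longer passed it, and none reversed; this was not counted for other genes. Among list medians 808 moved by less than the spread between replicates and 72 by more.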

Other observations

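The retinoid and steroid list held members in both directions. Of 29 measured genes 17 were higher and 12 lower. An unadjusted p under 0.05 was reached by 6 higher (3.41% over all genes) and 3 lower members (3.81% over all genes). Hsd3b5, a male-biased hydroxysteroid dehydrogenase, read 2.53, 3.20 and 2.94 on null and -3.53, 2.00 and 0.024 on wild-type arrays, a difference of 6.60 within scan 1 and 0.53 within scan 2. Among bile acid genes, Cyp27a1, a sterol 27-hydroxylase, differed by 0.92 (SE 0.25), the bile acid importer gene Slc10a1 by 0.82 (SE 0.26) and the exporter gene Abcc3 by -1.55 (SE 0.56), none past the threshold and none overlapping.

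Acute phase genes did not share a direction across scans, with a median of -0.70 within scan 1 and 1.02 within scan 2. Saa4, a serum amyloid A gene, read 3.13, 0.69 and 2.03 on null and -0.18, 0.087 and -0.12 on wild-type arrays (difference 2.02, SE 0.47, limma adjusted p = 0.277). Its other measured probe gave 1.16 (SE 0.58). Tetraspanins, a family of membrane organisers, had 7 of 18 members lower without overlap (4.55% over all genes) and 1 higher (4.79%). Of the 18, 4 did not clear background on all 6 low-fat arrays. Cd9 differed by -0.84 (SE 0.21) and Cd63 by -1.54 (SE 0.49), the latter -3.11 within scan 1 and -0.48 within scan 2. The interferon and antigen presentation list was lower for 26 of 32 measured genes, 3 of them at an unadjusted p under 0.05 (3.81% over all genes). Its median was -0.30, and it was -0.43 within scan 1, 0.0075 within scan 2 and -0.15 without wild-type replicate 1. The class II genes H2-Eb1 and H2-Ab1 of this list differed by -1.24 (SE 0.40) and -0.95 (SE 0.32), and neither was called.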
